A study of Homo sapiens with 16 samples.

Results

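Genes were examined at which SETDB1 was listed after ARID1A knockdown, at a position where it was not listed in control cells. The cells were HCT116, which come from a human colon carcinoma and are widely grown as a line. The 10 genes are PTDSS2, PEMT, ST3GAL2, UCKL1, TMEM11, IFRD2, TBX6, TCEA2, PHF13 and C1orf159, out of 19974 protein-coding genes on chromosomes 1 to 22 and X. They were chosen by the SETDB1 values themselves. A gained region was a SETDB1 peak of shARID1A cells, called against input, that ranked among the 10000 highest by −log10 q, overlapped a peak of the same library called against IgG, and overlapped no SETDB1 peak of shCtrl cells in either list. Of all protein-coding genes, 2978 (14.9%) had such a region within 1 kb of their body, and 346 (1.73%) had a strong one, meaning a false discovery rate q of at most 0.05. The 10 genes stood at the top of the strong ones by fold enrichment, the authors' ratio of fragment pileup at the summit to local background.

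Chromatin immunoprecipitation sequencing (ChIP-seq) recovers DNA bound to a protein or a modified histone with an antibody. The 4 antibodies were against ARID1A, TRIM28, SETDB1 and H3K9me3. Cells were HCT116 with no hairpin named in their labels (called unmodified), shCtrl cells (titled CTR, and read as the control hairpin of the series' design) and shARID1A cells. Unmodified cells had ARID1A, TRIM28 and H3K9me3 libraries, shCtrl cells had all 4, and shARID1A cells had TRIM28, H3K9me3 and SETDB1. No ARID1A library of the knockdown cells was used here, so the knockdown itself was not checked. The sources used here do not give the hairpin sequences, how far ARID1A fell, or whether a line was a pool or a clone. Each group held 1 library, and every list came in 2 forms, against input and against IgG. No difference between cell states therefore has a replicate check, and no test between groups was made.

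ARID1A is a subunit of one form of the SWI/SNF remodeller, which moves nucleosomes at promoters and enhancers. TRIM28 is a corepressor that is brought to DNA by zinc finger proteins and in turn brings SETDB1, a methyltransferase that places H3K9me3 on histone H3. That mark is best known from repeats, zinc finger gene clusters and other heterochromatin, whereas promoters rich in CpG usually lack it.

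Precision was limited by shallow pileups. The median summit held 5 to 12 fragments in the 20 lists, as recovered from deposited fold and p. These medians rest on 400 peaks sampled per list among those with a fold below 4, so taller peaks are left out. All lists were called at a loose threshold, an unadjusted p near 0.05. The SETDB1 list of shARID1A cells held 39245 peaks against input, 1363 of them strong, and that of shCtrl cells held 79404 and 37702. The lists of shCtrl SETDB1 had no peak whose recovered summit was under 5 fragments against input or 4 against IgG in the sampled peaks, so weaker signal would not be seen. The labels of shCtrl SETDB1 and shCtrl H3K9me3 are not settled. Of 12115 strong H3K9me3 peaks of shARID1A cells, 65.3% (95% exact binomial interval 64.5% to 66.2%, counting error only) met a peak of the library labelled shCtrl SETDB1, and 8.0% met one of the library labelled shCtrl H3K9me3. Of the 1363 strong SETDB1 peaks of shARID1A cells, 46.1% met a peak of the library labelled shCtrl SETDB1 and 5.94% one of that labelled shCtrl H3K9me3. Both antibodies in shARID1A cells thus met the same shCtrl library more often, so these overlaps cannot settle the labels. The regions described here held a peak of neither library: 0 of 10 in the lists of shCtrl SETDB1, which the choice fixed, and 0 of 10 in both lists of shCtrl H3K9me3, beside 1.68% and 5.05% of the other strong gained regions.

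Promoter sequences are shown for 5 genes because the gained regions lay over start sites and because the letters under their summits held a shared element. They are RefSeq promoter windows of GRCh38.p14, 250 bases before to 50 bases after a start site, read 5′ to 3′ along the gene. Capitals mark every match to ACTACNNNNCCC on either strand, and a match on the opposite strand reads GGGNNNNGTAGT here. C1orf159 had the highest fold enrichment, UCKL1 the most fragments and a tandem repeat of the element, IFRD2 a pair of matches facing each other, PTDSS2 the summit closest to its start site, and TMEM11 the lowest fold of the 10. The windows are C1orf159 at chr1:1116040-1116339 (minus strand), UCKL1 at chr20:63956367-63956666 (minus strand), IFRD2 at chr3:50292380-50292679 (minus strand), PTDSS2 at chr11:450029-450328 (plus strand) and TMEM11 at chr17:21214112-21214411 (minus strand).
C1orf159: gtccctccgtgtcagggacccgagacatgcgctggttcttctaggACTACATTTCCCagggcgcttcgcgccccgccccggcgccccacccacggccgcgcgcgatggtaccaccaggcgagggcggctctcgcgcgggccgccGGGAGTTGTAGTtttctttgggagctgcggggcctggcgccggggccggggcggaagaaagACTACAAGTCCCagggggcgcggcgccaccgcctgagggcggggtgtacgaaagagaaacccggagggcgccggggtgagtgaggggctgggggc
UCKL1: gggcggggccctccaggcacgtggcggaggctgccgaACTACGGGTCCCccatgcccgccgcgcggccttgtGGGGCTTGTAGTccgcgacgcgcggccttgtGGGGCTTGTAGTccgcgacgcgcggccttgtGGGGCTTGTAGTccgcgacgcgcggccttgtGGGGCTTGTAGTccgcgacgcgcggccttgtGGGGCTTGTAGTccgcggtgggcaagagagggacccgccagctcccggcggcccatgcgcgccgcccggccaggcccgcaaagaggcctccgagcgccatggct
IFRD2: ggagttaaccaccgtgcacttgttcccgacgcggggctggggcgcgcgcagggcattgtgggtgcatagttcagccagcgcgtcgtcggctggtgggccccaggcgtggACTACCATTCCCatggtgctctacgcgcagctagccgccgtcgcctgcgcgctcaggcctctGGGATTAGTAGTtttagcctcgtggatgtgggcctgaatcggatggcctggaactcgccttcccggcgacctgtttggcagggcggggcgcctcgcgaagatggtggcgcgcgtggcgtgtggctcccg
PTDSS2: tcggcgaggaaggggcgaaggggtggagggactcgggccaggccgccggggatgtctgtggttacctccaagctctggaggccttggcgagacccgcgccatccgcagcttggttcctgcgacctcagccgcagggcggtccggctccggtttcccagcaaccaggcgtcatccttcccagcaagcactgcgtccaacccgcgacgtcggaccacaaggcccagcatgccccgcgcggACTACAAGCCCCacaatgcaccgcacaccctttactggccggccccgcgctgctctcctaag
TMEM11: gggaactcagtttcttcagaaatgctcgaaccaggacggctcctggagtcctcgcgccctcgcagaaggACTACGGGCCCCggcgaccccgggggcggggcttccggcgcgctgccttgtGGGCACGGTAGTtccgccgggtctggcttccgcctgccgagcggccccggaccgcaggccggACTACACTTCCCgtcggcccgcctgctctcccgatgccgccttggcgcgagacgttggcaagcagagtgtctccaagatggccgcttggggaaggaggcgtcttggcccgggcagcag

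In shARID1A cells the gained regions were taller and wider than most peaks of their list. Their widths ran from 389 bp (PEMT) to 792 bp (IFRD2) with a median of 533 bp, beside medians of 356 bp for the other strong gained regions and 231 bp for all SETDB1 peaks of that list. Their fold enrichment against input ran from 13.1 to 24.3 with a median of 15.0, and against IgG from 8.58 to 33.3 with a median of 16.2, while the median peak of the input list had a fold of 2.95. Summits held 28 fragments at TMEM11 and up to 72 at UCKL1. These values chose the genes and are given as a description.

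The choice ended just under TMEM11. Of the 13 highest gained regions that lay in a protein-coding or long noncoding gene, 10 belonged to the listed genes, and ARID1A itself (fold 24.0) was one of the other 3. Just inside the boundary were ST3GAL2 at 13.3, PHF13 at 13.1 and TMEM11 at 13.1. Just outside were FAM222A at 12.7, RTN2 at 12.2, DGAT1 at 11.3, a region shared by TTC13 and ARV1 at 11, and PANK4 at 10.8.

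**Figure D1:**
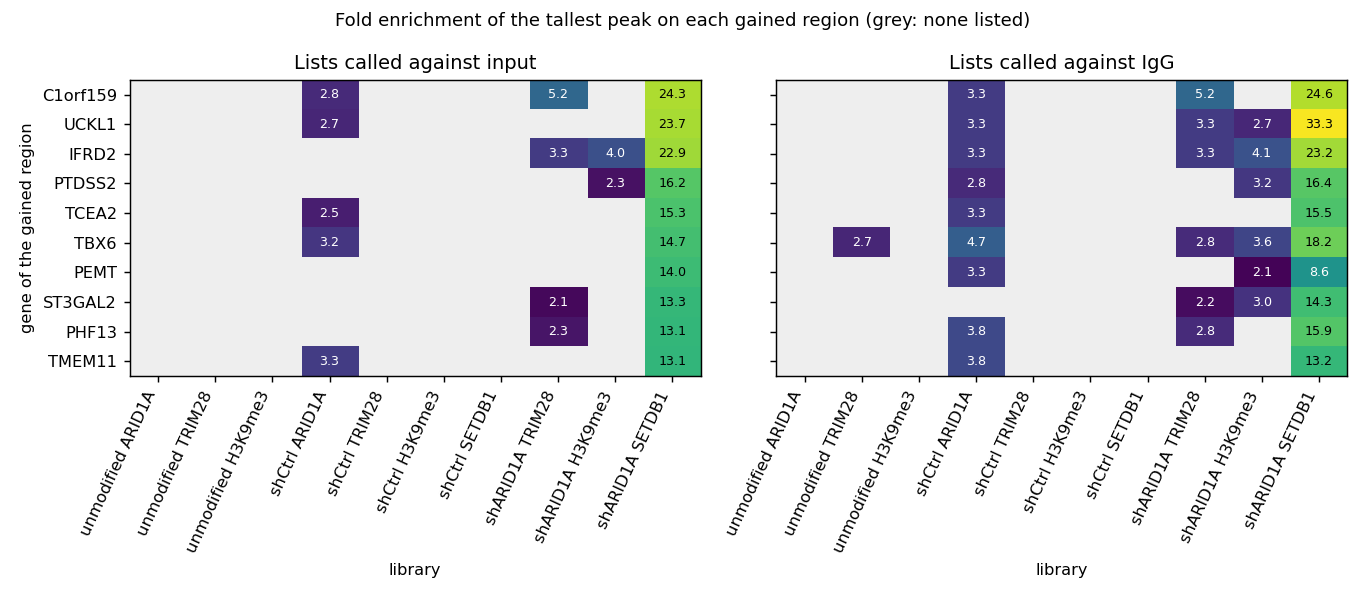
Fold enrichment (a ratio, coloured on a log2 scale and printed in the cells) of the tallest peak on each of the 10 gained regions, in rows, for the 10 libraries, in columns, called against input (left) and IgG (right). Grey cells have no listed peak. The shARID1A SETDB1 column is filled by choice. Outside it, peaks lay in shCtrl ARID1A, shARID1A TRIM28 and shARID1A H3K9me3, with folds of 5.18 or less, and once in unmodified TRIM28 (TBX6, 2.73).

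PTDSS2 and PEMT both act on phospholipid head groups. PTDSS2 makes phosphatidylserine by base exchange, and its gene spans chr11:448268-491399. Its gained region at chr11:449959-450486 had a SETDB1 fold of 16.2 against input and 16.4 against IgG, from 35 fragments, and its summit lay 4 bp inside the gene from a RefSeq start site. ARID1A of shCtrl cells had a peak there against IgG (fold 2.82, 5 fragments) and none against input. H3K9me3 of shARID1A cells overlapped 48 bp of the region against input (fold 2.26) and 404 bp against IgG (3.18), and a strong H3K9me3 peak lay outside the region, at chr11:449040-449339 (fold 4.26, 9 fragments). No TRIM28 peak lay on the region in any list.

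PEMT methylates phosphatidylethanolamine to phosphatidylcholine, mainly known from liver, and its gene spans chr17:17505563-17592142. The gained region at chr17:17591599-17591987 was the only one of the 10 with a clearly lower fold against IgG (8.58) than against input (14), both from 32 fragments. The recovered background at the summit was 2.85 fragments against IgG and 1.34 against input. The summit lay 81 bp before one of 3 RefSeq start sites. On the region, shCtrl ARID1A had a peak against IgG (3.29), shARID1A H3K9me3 had a weak one against IgG (2.07), and no library other than SETDB1 had one against input.

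ST3GAL2, UCKL1, TMEM11 and IFRD2 encode enzymes and proteins of other kinds. ST3GAL2 adds sialic acid to glycans of proteins and gangliosides and spans chr16:70375977-70439100. Its region at chr16:70439034-70439571 had a SETDB1 fold of 13.3 against input and 14.3 against IgG (32 fragments), and covered the upper end of the gene. It was the one region of the 10 with no shCtrl ARID1A peak in either list. TRIM28 of shARID1A cells had a peak of 4 fragments there in both lists (2.12 and 2.2), and H3K9me3 had one against IgG (3.03) whose summit lay 7 bp from that of SETDB1.

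UCKL1, a uridine-cytidine kinase-like protein of pyrimidine salvage, spans chr20:63939829-63956416. The region at chr20:63956349-63956929 had the most fragments of the 10, 72, with a SETDB1 fold of 23.7 against input and 33.3 against IgG. ARID1A of shCtrl cells had a peak of 6 fragments in both lists (2.72 and 3.29). Against IgG, TRIM28 (3.29) and H3K9me3 (2.73) of shARID1A cells had weak peaks on it. A strong H3K9me3 peak of shARID1A cells stood beside it at chr20:63957394-63957947 (fold 4.03, 10 fragments), and no SETDB1 peak of shCtrl cells lay within 1 kb of the gene.

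TMEM11, a mitochondrial inner membrane protein that shapes cristae, spans chr17:21197954-21214161. Its region at chr17:21213864-21214514 had a SETDB1 fold of 13.1 against input and 13.2 against IgG from 28 fragments. A shCtrl ARID1A peak of 7 fragments lay on it in both lists (3.31 and 3.76), with a summit 16 bp from that of SETDB1 against input. That was the closest agreement of ARID1A and SETDB1 summits among the 10 regions. No H3K9me3 peak of shARID1A cells lay within 1 kb of the gene, in either list.

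IFRD2, a ribosome-binding protein linked to translational silencing, spans chr3:50287732-50292429. The region at chr3:50291928-50292719 had a SETDB1 fold of 22.9 against input and 23.2 against IgG from 50 fragments. It was the region with the most company in shARID1A cells: TRIM28 had a fold of 3.29 in both lists, with summits 9 bp and 3 bp from that of SETDB1, and H3K9me3 had 4.02 against input and a strong 4.09 against IgG. It was also the one closest to SETDB1 of shCtrl cells. A strong shCtrl SETDB1 peak lay 46 bp outside it against input (fold 3.72, 10 fragments) and 18 bp outside it against IgG (fold 4.80), with summits 388 bp and 389 bp from the gained summit.

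TBX6, TCEA2 and PHF13 act in transcription and chromatin. TBX6 is a T-box factor of early mesoderm and spans chr16:30085793-30091924. Its region at chr16:30091805-30092290 had a SETDB1 fold of 14.7 against input and 18.2 against IgG from 39 fragments. It carried the most ARID1A fragments of the 10, with 9 in both lists of shCtrl cells. The ARID1A fold was 3.15 against input, below the 3.31 of TMEM11, and a strong 4.69 against IgG, the highest of the 10. The TBX6 region was the only one with a peak in unmodified cells, of TRIM28 against IgG (2.73). Beside it, at chr16:30092764-30093108, stood a strong shCtrl SETDB1 peak against IgG (4.77), and at chr16:30092728-30093101 a strong shARID1A H3K9me3 peak against IgG (5.00).

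TCEA2, a testis-enriched elongation factor of the TFIIS family, spans chr20:64055596-64072347. The region at chr20:64062857-64063329 had a SETDB1 fold of 15.3 against input and 15.5 against IgG from 33 fragments, 142 bp before an internal start site. Of the other libraries only shCtrl ARID1A overlapped it, at its edge, by 19 bp against input (2.55) and 28 bp against IgG (3.29). PHF13 carries a PHD finger that reads H3K4me3 and spans chr1:6613731-6624030. Its region at chr1:6613369-6613807 had a SETDB1 fold of 13.1 against input and 15.9 against IgG from 34 fragments. ARID1A of shCtrl cells had a peak there against IgG (3.76), and TRIM28 of shARID1A cells touched it by 13 bp against input (2.35).

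C1orf159 is a little-characterised open reading frame that spans chr1:1081823-1116089. Its region at chr1:1115919-1116612 had the highest SETDB1 fold against input, 24.3, with 24.6 against IgG, from 53 fragments. It held the only strong TRIM28 peak among the 10 regions, with 10 fragments and a fold of 5.18 in both lists, whose summit lay 121 bp from that of SETDB1. The shCtrl ARID1A peak there had 6 fragments in both lists (2.80 and 3.29). H3K9me3 of shARID1A cells had no peak on the region. Deeper in the gene, at chr1:1099926-1100277, it had a weak one (2.91) that overlapped a weak shCtrl SETDB1 peak at chr1:1099986-1100203 (3.13).

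ARID1A of shCtrl cells was listed at several of the gained regions, with few fragments. Against input 5 of 10 regions held a peak (C1orf159, UCKL1, TCEA2, TBX6 and TMEM11), with 6 to 9 fragments each and 0 strong ones, against 8.15% of 6441 other gained regions, 21.1% of 475 other strong gained regions and 27.9% of those of them at a promoter. Against IgG 9 of 10 held one, all but ST3GAL2, with folds of 2.82 to 4.69, against 21.4%, 51.2% and 71.4% in the same 3 sets. Against input the share was higher at taller SETDB1 regions. It was 34.7% of 49 other gained regions with a fold of 6 to 8, and 41.5% of 41 with 8 or more. The listed regions were also wider, and a wider region meets a peak more easily. Promoter windows of 300 bp were also counted. Of 6392 other protein-coding windows with a base composition in the range of the listed genes, 48.6% held a shCtrl ARID1A peak against IgG and 14.4% against input. Of the 9 windows of the listed genes, 8 held one against IgG and 4 against input. ARID1A of unmodified cells was listed at 0 of 10 regions in both lists, beside 0.632% and 4.84% of the other strong gained regions. In the same cells TRIM28 was listed at 0 and 1 of the 10 (0.211% and 9.05%) and H3K9me3 at 0 in both (0.211% and 7.58%). With 10 regions these shares are coarse, and the counts describe former ARID1A peaks only at the authors' loose threshold.

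TRIM28 and H3K9me3 of shARID1A cells lay on some of the regions. TRIM28 was listed at 4 of 10 against input (C1orf159, IFRD2, ST3GAL2 and PHF13) and at 6 of 10 against IgG, where UCKL1 and TBX6 joined them. The shares were 20.2% and 21.3% in the other gained regions and 47.6% and 56.8% in the strong ones, so the listed genes stood near the background of strong regions. H3K9me3 was listed at 2 of 10 against input (IFRD2 and PTDSS2), beside 6.01% of the other gained and 19.6% of the other strong gained regions, and at 6 of 10 against IgG, beside 15.1%, 38.9% and, for strong ones at a promoter, 50.7%. At the regions 0 H3K9me3 peaks were strong against input, and those of IFRD2 and TBX6 were strong against IgG. Of 41 other gained regions with a SETDB1 fold of 8 or more, 63.4% held TRIM28 of shARID1A cells against input and 24.4% held H3K9me3. TRIM28 of shCtrl cells was listed at 0 of 10 in both lists, beside 1.05% and 4.21% of the other strong gained regions.

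**Figure D2:**
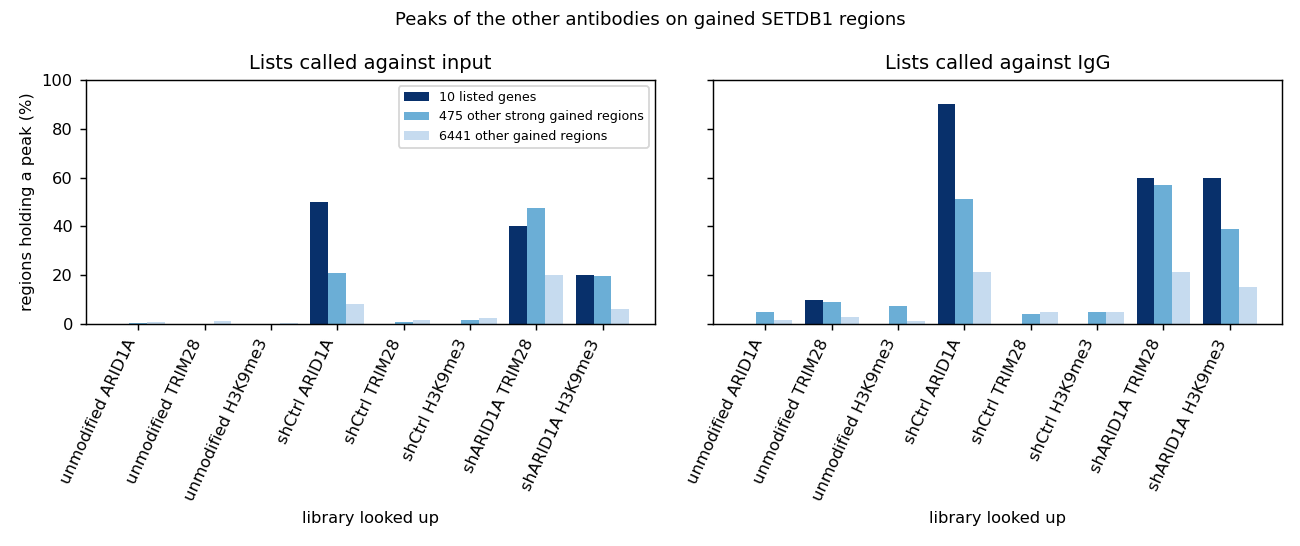
Share of gained SETDB1 regions that hold a peak of each library other than SETDB1, called against input (left) and IgG (right), for the 10 listed genes, 475 other strong gained regions and 6441 other gained regions. The listed genes reach 90% for shCtrl ARID1A against IgG beside 51.2%, and 40% for shARID1A TRIM28 against input beside 47.6%. Each bar of the listed genes rests on 10 regions, and the y axis starts at 0.

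Within 1 kb of the regions the pattern widened. H3K9me3 of shARID1A cells was found within 1 kb at UCKL1, IFRD2, PTDSS2, TCEA2 and PEMT against input, 5 of 10 beside 27.4% of the other strong gained regions, and at 9 of 10 against IgG beside 61.7%. TRIM28 of the same cells was found at 6 of 10 beside 60.0%, and at 9 of 10 beside 70.5%. For shCtrl ARID1A the counts were 5 of 10 beside 31.6% and 10 of 10 beside 67.6%. SETDB1 of shCtrl cells, absent from the regions by choice, lay within 1 kb of IFRD2 against input, and of IFRD2, TBX6 and ST3GAL2 against IgG. At these 3 genes SETDB1 was therefore listed near by in shCtrl cells, with 5 to 10 fragments, at another position.

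Over whole genes with 1 kb on each side, the SETDB1 input list of shARID1A cells had 15 peaks in the 10 genes, of which the 10 gained ones were strong and the rest were not. A peak of that library was in 10 of 10 genes in both lists, beside 43.7% and 83.6% of protein-coding genes, which the choice fixed. SETDB1 of shCtrl cells had a peak in 3 of 10 genes against input (C1orf159, IFRD2 and ST3GAL2) and in 5 against IgG, beside 58.7% and 71.7% of protein-coding genes. The choice lowered these counts too, since it barred such a peak from the gained region, so they are a description only. TRIM28 of shARID1A cells had one in 10 of 10 genes in both lists, beside 72.4% and 83.4%, and TRIM28 of shCtrl cells in 2 and 4, beside 40.4% and 75.9%. H3K9me3 of shARID1A cells had one in 7 and 9 genes, beside 46.8% and 85.4%, and the library labelled shCtrl H3K9me3 in 2 and 7, beside 46.8% and 77.9%. ARID1A of shCtrl cells had one in 6 and 10 genes, beside 52.4% and 83.8%. A gene-wide peak is more likely in a long gene, and lengths ran from 4698 bp (IFRD2) to 86580 bp (PEMT).

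All 9 regions with a RefSeq promoter window covered that window whole. Summits lay between 163 bp before the start site (TMEM11) and 4 bp after it (PTDSS2), at 125 bp before it for C1orf159, 136 bp for UCKL1, 87 bp for IFRD2, 142 bp for TCEA2, 70 bp for TBX6, 81 bp for PEMT and 121 bp for PHF13. The tall signal was thus placed just upstream of transcription in 8 of the 9. Of the other strong gained regions 29.5% touched a protein-coding promoter, of the other gained regions 8.48%, of strong shARID1A SETDB1 peaks that were not gained 17.1%, and of strong shCtrl SETDB1 peaks 5.56%. These sets were not limited to genes, and any protein-coding promoter counted. The listed regions had to lie within 1 kb of a gene body and were set against their own gene, so the comparison is not on equal terms. Over all peaks of the input lists the shares were 4.42% for shARID1A SETDB1 and 3.70% for shCtrl SETDB1. The share was higher among taller regions: 6.12% of 5111 other gained regions with a fold of 2 to 4, 15.9% of 1236 with 4 to 6, 44.9% of 49 with 6 to 8 and 36.6% of 41 with 8 or more.

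**Figure D3:**
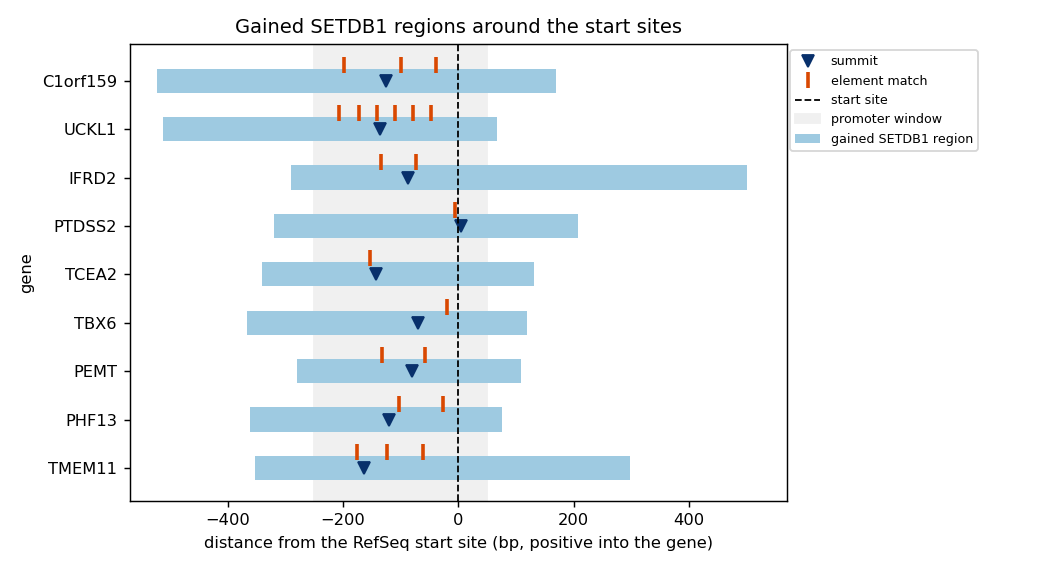
Gained SETDB1 regions (bars) of the 9 genes with a RefSeq promoter window, in bp from the start site along the gene, with SETDB1 summits (triangles) and matches to the loose element (ticks). Each summit has a match within 50 bp, which is the largest distance among them. Of pairs of another strong shARID1A SETDB1 region and a promoter with a match, 70% of 70 gained and 80.6% of 103 not gained were within 50 bp. Of the 9 windows, 6 hold more than 1 match, which makes a near one easier. All 9 regions span the start site.

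The promoter letters of the 9 genes were rich in G and C. Their G+C content ran from 65.3% (PEMT) to 75% (TCEA2) with a median of 71.3%, against a median of 62.3% over 22132 protein-coding promoter windows and 70.3% at 189 windows under other strong gained regions. CpG was present at 0.806 to 1.11 times the number its bases predict. Among common promoter motifs looked up (both strands), the Sp1 box GGGCGG was in 7 of 9 windows, against 45.0% of all 34961 windows and 85.0% of protein-coding windows of the same G+C range. The ETS motif CCGGAAG was in 1 of 9 (10.3% of all windows), the E-box CACGTG in 1 (7.27%) and the YY1 motif ATGGCG in 2 (10.7%). The NRF1 motif (5.80%), the CRE TGACGTCA (1.85%) and the AP-1 motif TGANTCA (7.68%) were in 0 of 9.

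An element that is none of these recurred. It was chosen after the letters of these promoters were seen, so its count in them is a description. Of all patterns of 5 letters, 3 open positions and 4 letters that occur in the windows, on either strand, ACTACNNNTCCC was the one in most of them, and no other pattern was in more than 7. In this strict form it was in 8 of the 9 windows, all but PTDSS2, and in the loose form printed in capitals, which contains the strict one, in 9 of 9. Of all windows 2.25% held the strict and 2.91% the loose form, and of protein-coding windows 2.93% and 3.72%. Such letters resemble the core of the element that ZNF143, a zinc finger activator of many promoters, is known to bind. A match shows letters only, and no binding of that factor was measured here.

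There were 21 loose matches in the 9 windows, 11 along the gene and 10 against it, and 6 genes had more than 1. C1orf159 had ACTACATTTCCC, ACTACAACTCCC and ACTACAAGTCCC, the middle one on the opposite strand. UCKL1 had 6, of which 5 were the same ACTACAAGCCCC against the gene at a steady spacing of 31 bp, as the printed repeat shows. TCEA2 and TBX6 each had 1 match, with the same letters ACTACACTTCCC, and PEMT and PHF13 each had 2, with ACTACATTTCCC in both genes. The nearest match to the SETDB1 summit was centred 5 bp away at UCKL1, 10 bp at PTDSS2, 11 bp at TCEA2, 12 bp at TMEM11, 14 bp at IFRD2, 18 bp at PHF13, 24 bp at PEMT, 25 bp at C1orf159 and 50 bp at TBX6. The median was 14 bp, in windows of 300 bp.

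Promoters outside the 10 genes were counted for comparison. The strict element was in 36.5% of the 189 promoter windows under other strong gained regions, in 56.5% of 23 with a fold of at least 8, 51.7% of 29 with 6 to 8 and 29.9% of 137 below 6. Weak gained regions had it in 8.95% of 503 windows. It was not limited to gained regions, since 49.7% of 185 windows under strong shARID1A SETDB1 peaks that were not gained held it. Under strong peaks of other libraries it was in 8.35% of 2600 windows for shCtrl SETDB1, 8.63% of 510 for shARID1A H3K9me3 and 3.85% of 156 for shARID1A TRIM28 against input, and in 4.50% of 556 for shCtrl ARID1A against IgG. Under the 1363 shCtrl SETDB1 peaks with the highest −log10 q, as many as the strong ones of shARID1A cells, it was in 9.35% of 107 windows. Under strong peaks of the library labelled shCtrl H3K9me3 it was in 0 of 76 windows. The libraries labelled SETDB1 thus differed in these letters outside gained regions as well. With 1 library per cell state, a difference between the cells and one between the precipitations cannot be told apart, although the labels name the same SETDB1 antibody for both. Among protein-coding windows in the G+C range of the listed genes 3.11% held it. Where another strong gained region met a promoter with a loose match, its summit was a median of 31.5 bp from the nearest one (70 pairs), and for regions not gained 24.0 bp (103 pairs).

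**Figure D4:**
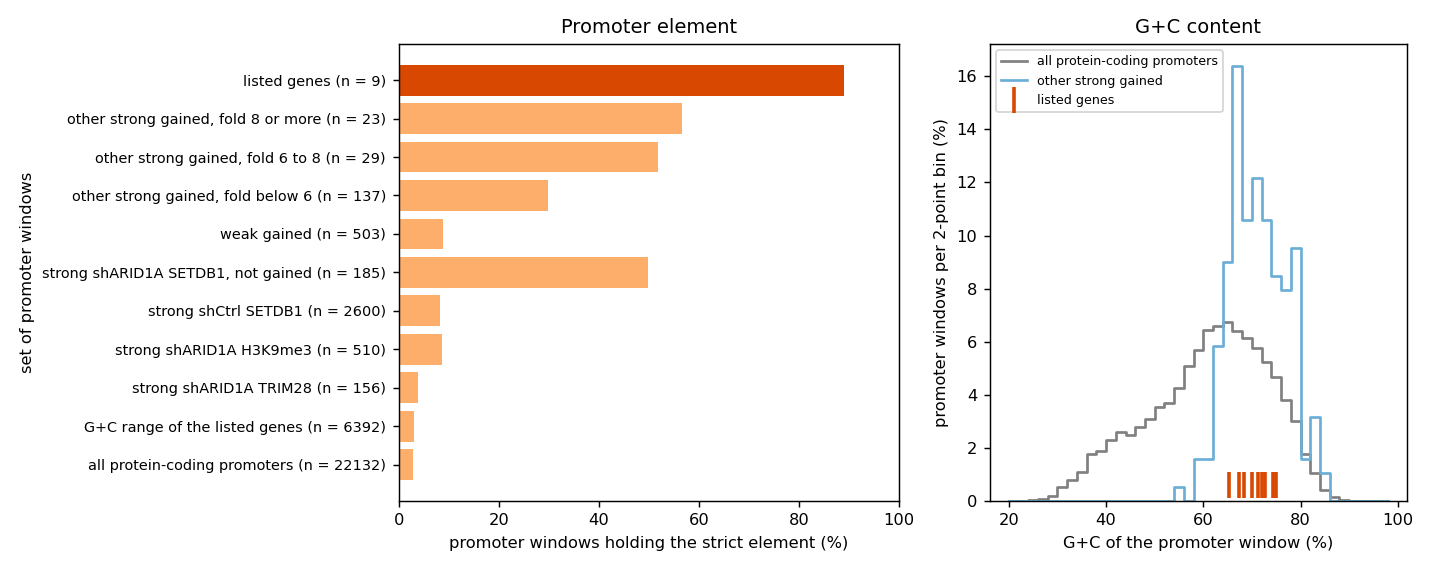
Left, share of promoter windows (%) holding the strict element in sets of windows named on the y axis with their number. Right, G+C content (%) of all protein-coding promoter windows and of those under other strong gained regions, as shares of windows per bin, with the listed genes as ticks. The listed genes (8 of 9 windows) come first, promoters under other strong shARID1A SETDB1 peaks follow at 29.9% to 56.5%, and the other sets lie at 8.95% or less, beside 2.93% of all protein-coding promoters.

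Position along the chromosome also varied. C1orf159, UCKL1, PTDSS2 and TCEA2 lay within 2 Mb of a chromosome end, at 1.08, 0.377, 0.448 and 0.261 Mb. C1orf159 and PTDSS2 were measured from the first base of their chromosome. UCKL1 and TCEA2 were measured from the far end, taken as the last peak in any list. That is 4 of 10, beside 7.40% of protein-coding genes and 9.26% of the other strong and 4.38% of all other gained regions. UCKL1 and TCEA2 lie near the same end of chromosome 20. The other 6 genes lay from 6.61 Mb (PHF13) to 50.3 Mb (IFRD2) from an end.

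Several regions cannot be given to 1 gene. That of UCKL1 also lay within 1 kb of ZNF512B and of the antisense gene UCKL1-AS1, that of IFRD2 within 1 kb of HYAL3, that of TBX6 within 1 kb of YPEL3, that of PHF13 within 1 kb of LOC107984913, and that of TMEM11 within 1 kb of TMEM11-DT. Among 44 protein-coding neighbours within 50 kb, 14 had another SETDB1 peak of shARID1A cells against input, beside 43.7% of all protein-coding genes with any peak. It was strong in YPEL3 (5.86) and FCSK (4.54). SETDB1 of shCtrl cells had a peak in 16 of these neighbours, beside 58.7%, strong in 8. The gained regions were left out for the neighbours only, some neighbours overlap each other, and gene length was not matched, so these shares are not on equal terms. Both YPEL3 (7.06) and FCSK (3.56) were among those with a strong peak of the library so labelled.

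Paralogs and pathway partners of the genes were looked up from a list of 46, which took in phospholipid head group enzymes, sialyltransferases, uridine kinases, T-box factors, TFIIS proteins and cristae proteins. A SETDB1 peak of shARID1A cells was found in 24 of them against input (52.2%, beside 43.7% of protein-coding genes), and a gained region in 12 (26.1%, beside 14.9%). Strong gained regions lay in IFRD1 (4.38), the paralog of IFRD2, and MICOS13 (8.11), a subunit of the cristae junction complex, which makes 4.35% beside 1.73%. SETDB1 of shCtrl cells had a peak in 33 of the 46 (71.7%, beside 58.7% of protein-coding genes), strong in 21. TRIM28 of shARID1A cells was strong in TBX2 (5.65) and TBX15 (4.24). No sialyltransferase, uridine kinase or phospholipid enzyme on the list had a strong SETDB1 peak of shARID1A cells against input. Only 2 of the 46 genes (4.35%), IFRD1 and MICOS13, had one, so most families on the list had none. Against IgG 10 genes (21.7%) had a strong one, among them CHKA, PCYT1A, ST3GAL1 and ST3GAL3.

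Gained regions of other genes were compared with the listed ones on the 16 lists other than SETDB1, by the mean absolute difference of log2(fold + 1), with absent peaks at 0, from the median of the 10. Among the closest were UGDH (0.0643), CCPG1 and PIERCE2 (0.0742, a shared region), STARD3NL (0.0767) and TP53INP2 (0.0784). Their SETDB1 folds in shARID1A cells were 3.09 to 3.31, far below those of the listed genes. The listed genes themselves stood 0.0886 (UCKL1) to 0.389 (IFRD2) from their own median.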

How the data were processed

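Peak lists of 10 precipitated ChIP-seq libraries, each called against input and IgG, were used (20 lists, 1 library per group). The submitters' processing notes name MACS2 2.2.7.1, Bowtie2 2.2.5, FastQC 0.11.9, ChIPseeker and deepTools 3.5.1 beside the builds hg38 and GRCh38. Their options were not given in the sources used here. The deposited fold enrichment of a peak is a ratio of pileup to local background, and the deposited −log10 p and −log10 q come from the same call. These are the authors' values. The antibody products named for H3K9me3 and TRIM28 differ between the labels' protocols and characteristics, so which was used is not settled here.

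The 10 genes, the list of paralogs and the motifs were chosen with earlier results of these data known, and the ACTAC element, with the shape of the pattern searched, after the promoter letters were seen. Genes and promoter windows came from RefSeq tables of GRCh38.p14, in which 9 of the 10 genes had a promoter window and ST3GAL2 did not. Where a gene had several start sites, the one nearest the summit was used. The gene table carries no exons. Peaks were taken as shared from 1 bp of overlap. Fragments were recovered as whole pileup counts times a scale for each list, and the method was tested on simulated data. Of 400 peaks sampled per list with a fold below 4, 99.75% or more were whole within 0.02 fragments. All 10 listed genes were named. Other genes were named as the next 5 regions by fold, the 5 most alike in profile, paralogs with a strong peak, and genes sharing a region. Of the genes so named, 1 is not reported here. ARID1A and FCSK were named after their values were seen. Work was done in Python 3.11.15 with pandas 2.3.3, numpy 2.4.6 and scipy 1.17.1.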

Additional observations from a re-analysis of the deposited data

How the results depend on the processing

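Among 18 results, 41 of 62 alternatives gave a count equal to the main one or within 1.5 times of it. Some of these counts did change, as for shARID1A TRIM28, at 6 regions against IgG in place of 4. Where the main count was 0, a stricter threshold or overlap could only give 0 again, so the tally overstates stability. In the others counts moved by over 1.5 times, and the median fold moved by less. With lists against IgG in place of input, gained regions with a peak numbered 9 in place of 5 for shCtrl ARID1A, 6 in place of 2 for shARID1A H3K9me3 and 1 in place of 0 for unmodified TRIM28. Genes with a peak numbered 4 in place of 2 for shCtrl TRIM28, 7 in place of 2 for shCtrl H3K9me3 and 5 in place of 3 for shCtrl SETDB1, and the median SETDB1 fold was 16.2 in place of 15.0. With a q of at most 0.05, regions numbered 0 for shCtrl ARID1A, 1 for shARID1A TRIM28 in place of 4 and 0 for shARID1A H3K9me3, and genes 0 for shCtrl TRIM28, 0 for shCtrl H3K9me3, 1 for shARID1A TRIM28 in place of 10 and 2 for shARID1A H3K9me3 in place of 7. With 50% of the region covered, they numbered 0 for shCtrl ARID1A, 2 for shARID1A TRIM28 and 0 for shARID1A H3K9me3, and among the top 10000 peaks of a list 1, 1 and 0. A stricter threshold or overlap leaves fewer peaks by construction, and why the 2 controls differed was not tested. Chosen after seeing the data, a distance of 1 kb in place of an overlap gave a shCtrl SETDB1 peak at 3 regions in place of 0. No paired analysis was possible because each group holds 1 library and the labels carry no replicate numbers. For the same reason no library could be left out of a group. Depth limits all counts: former ARID1A peaks rest on 5 to 9 fragments.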
